A study of Drosophila melanogaster with 24 samples.

Results

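Germ plasm RNAs and pole cell genes were followed in single *Drosophila melanogaster* embryos through 8 genes chosen by name, *osk*, *vas*, *tud*, *vls*, *stau*, *nos*, *pgc* and *gcl*, out of the 17370 genes of the count table. All 8 were found by their FlyBase identifiers and all 8 passed the filter on low counts in every comparison. The study measured RNA-seq of whole single embryos of the *Acf* deletion line AcfC and of the wild-type strain OrR, to ask how gene expression depends on ACF1, the large subunit of a nucleosome remodeling complex, before and after zygotic genome activation (ZGA).

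The 4 groups were AcfC at Bownes Stage 8, wild type at Stage 8, AcfC at Bownes Stage 3 and wild type at Stage 3, with 6 embryos each. AcfC, a line made by CRISPR, lacks most of the *Acf* gene except its UTRs. It was backcrossed to OrR for 8 generations, and strain differences that may remain were not measured. AcfC embryos came from the homozygous line, so their mothers lacked ACF1 as well. Embryos developed at 25 °C, for around 4 h to Stage 8 (gastrula, after ZGA) and for around 1 h to Stage 3 (when pole cells appear, before ZGA). They were picked by hand and kept their chorion. The study left out 1 AcfC embryo of Stage 3 for improper staging. Its listed mean counts matched the table to a median of 0.0147% when replicate 2 was the embryo left out, and to 1.01% at best when another or none was. The comparisons therefore used 23 embryos, with 5 AcfC embryos at Stage 3.

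Germ plasm is cytoplasm that the mother assembles at the posterior pole of the egg, and it holds proteins and RNAs that make cells germ line. Oskar protein starts the assembly, Vasa and Tudor build on it, and RNAs such as *nos*, *pgc* and *gcl* are anchored there. The pole cells that bud off at the posterior take up this cytoplasm and its RNAs, while copies elsewhere in the embryo are degraded as the zygotic genome becomes active. Pole cells are few among the cells of an embryo, and in whole-embryo RNA fewer pole cells and less RNA per pole cell cannot be told apart.

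The genes lie on 3 chromosome arms of the BDGP6 assembly. *osk* (FBgn0003015) lies on 3R from 8935126 to 8938395 and *nos* (FBgn0002962) on 3R from 19157238 to 19160202, both on the plus strand. *vas* (FBgn0283442) spans 15061656 to 15074311 of 2L on the plus strand, and *vls* (FBgn0003978) spans 20064261 to 20065679 of 2L on the minus strand. On 2R, *gcl* (FBgn0005695) spans 8724258 to 8728999, *tud* (FBgn0003891) 21183322 to 21192913 and *pgc* (FBgn0016053) 22330200 to 22332813, all on the plus strand, and *stau* (FBgn0003520) spans 18117896 to 18125779 on the minus strand.

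The libraries did not mark strand, so reads on bases shared with another gene cannot be assigned. *pgc* shares 569 of its 1212 exon bases (46.9%) with *T3dh* on the opposite strand, and *vas* shares 563 bases (24.6%) with *solo* on its own strand. *nos* shares 269 bases (11.5%) with *CG11779* and 104 bases (4.4%) with *Nsun5*. *osk* shares 2251 bases (78.5%) with the noncoding RNA *lncRNA:osk* on its own strand, which has no row in the count table, and 162 bases (5.6%) with the antisense RNA *asRNA:CR44020*. The shared part is 9.2% for *vls* (with *lok*) and 1.4% for *gcl* (with *CG30356*). *tud* and *stau* share none. The counts of *osk*, *pgc* and *vas* thus have the largest shared parts, and the level of *osk* can include reads of *lncRNA:osk*.

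The deposited counts came to 4213692 to 11935129 per embryo. TMM-normalized levels are expressed as counts-per-million (CPM) of protein-coding counts. *Acf* itself had 40.7 to 67.3 CPM in AcfC and 479 to 509 CPM in wild type at Stage 8. At Stage 3 it had 99.0 to 135 CPM in AcfC and 601 to 670 CPM in wild type. No embryo went against its label. The summed CPM of 13 early zygotic genes (such as *twi*, *Kr* and *ftz*) was 1150 to 2050 in AcfC and 1030 to 1480 in wild type at Stage 8. At Stage 3 it was 244 to 364 in the 5 AcfC embryos and 223 to 344 in wild type. Wild-type replicate 3 at Stage 3 stood apart with 344, against 223 to 249 in the other 5, and had 1 of the 13 genes at 0, against 8 to 10 in the others. AcfC replicates 1 and 4 at Stage 3 had 364 and 360, with none of the 13 genes at 0. Of the 13 genes, 10 were called higher and 1 lower at Stage 8 in each genotype. The Stage 3 sum thus includes RNA that falls after ZGA and is not a measure of stage alone. Genes with an adjusted p under 0.1 in the quasi-likelihood test of edgeR, adjusted over all genes tested, are called changed.

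Of the 8 RNAs, 6 were lower at Stage 8 than at Stage 3 and 2 were higher. *osk*, *vas*, *nos*, *pgc* and *gcl* fell to 0.822 to 11.1% of their Stage 3 mean in AcfC and 0.961 to 10.5% in wild type. *tud* fell less, while *vls* rose and *stau* rose slightly on the TMM scale. In each genotype all 8 genes were called, with 2 higher and 6 lower at Stage 8. Calls were the rule for all genes: 86.2% of genes tested were called in AcfC (34.7% lower, 51.5% higher) and 88.1% in wild type (39.6% lower, 48.5% higher). The median log2 fold change of the 8 genes was −3.45 in AcfC and −3.38 in wild type, beside medians over all genes tested of 0.40 and 0.20.

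**Figure D1:**
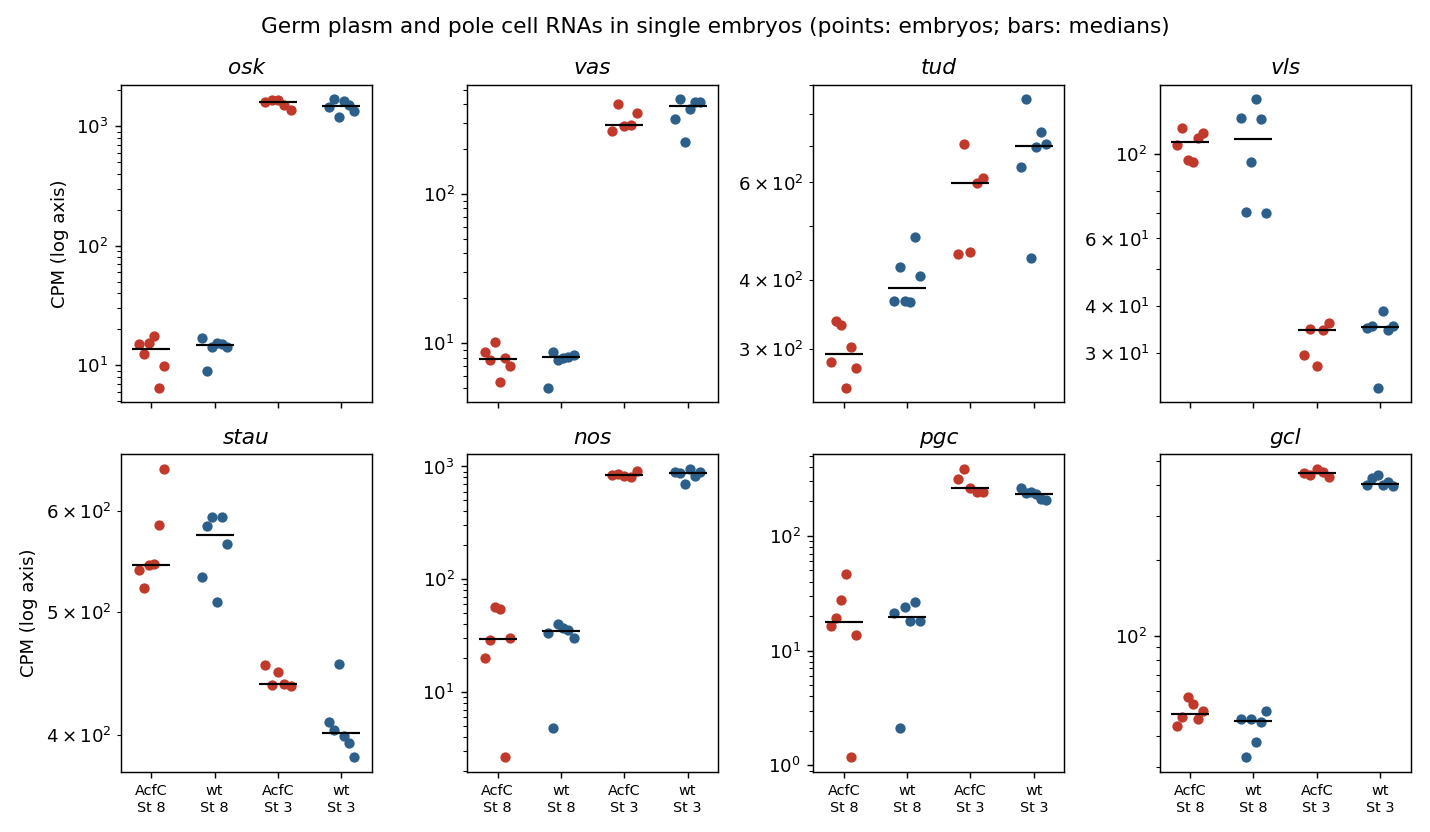
Level of each of the 8 RNAs in single embryos. Each panel is 1 gene, the vertical axis is CPM on a log scale, points are embryos (AcfC red, wild type blue) and bars are medians, with the excluded AcfC embryo of Stage 3 not drawn. *osk*, *vas*, *nos*, *pgc* and *gcl* lie far lower at Stage 8, and 1 embryo of each genotype lies far below the rest for *nos* and *pgc* at Stage 8.

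*osk* encodes Oskar, the protein that nucleates germ plasm, and its RNA was the most abundant of the 8 per kilobase of exon before ZGA. In AcfC embryos it had 6.46, 13.7 and 17.6 CPM (lowest, median and highest of 6) at Stage 8, against 1582, 1666, 1667, 1509 and 1356 CPM in the 5 embryos of Stage 3. In wild type the lowest, median and highest were 9.01, 14.6 and 16.7 CPM at Stage 8 and 1199, 1477 and 1677 CPM at Stage 3. Every Stage 8 embryo lay far below every Stage 3 embryo. The fall was 117-fold in AcfC (log2 fold change −6.87, standard error 0.180, adjusted p = 3.34e-13 from edgeR) and 98.9-fold in wild type (−6.63, standard error 0.124, adjusted p = 2.42e-16 from edgeR). The Stage 8 values rest on 22 to 86 reads per AcfC embryo and 30 to 80 per wild-type embryo.

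*vas* encodes Vasa, a DEAD-box RNA helicase of the germ granules and a standard marker of germ cells as a protein. Its RNA averaged 7.85 ± 1.59 CPM (SD, n = 6) in AcfC at Stage 8, against 318 ± 56.0 CPM (SD, n = 5) in AcfC at Stage 3. In wild type it averaged 7.63 ± 1.33 CPM at Stage 8 and 362 ± 79.4 CPM at Stage 3 (SD, n = 6 each). Only 11 to 57 reads per AcfC embryo and 24 to 35 per wild-type embryo supported *vas* at Stage 8, the lowest support of the 8 genes after *pgc* and *nos* in their lowest embryos. On the log2 scale the change was −5.24 in AcfC and −5.52 in wild type (edgeR adjusted p = 5.82e-13 and 1.33e-13). *solo*, which shares exon bases with *vas*, was not called between the stages in either genotype, with log2 fold changes of −0.11 and 0.34.

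*nos* encodes the translational repressor Nanos, which specifies the abdomen and protects the germ line fate of pole cells. Its RNA had 2.64, 29.4 and 56.3 CPM (lowest, median, highest) in AcfC at Stage 8, against 835, 863, 827, 810 and 906 CPM in the 5 embryos of Stage 3. In wild type it had 4.80, 34.7 and 40.4 CPM at Stage 8 and 698, 879 and 952 CPM at Stage 3. The stages did not overlap, and the spread at Stage 8 was wide. The fall was 25.7-fold in AcfC and 26.8-fold in wild type (log2 fold changes −4.68 and −4.74, standard errors 0.413 and 0.269, edgeR adjusted p = 1.12e-07 and 1.05e-10).

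*pgc* encodes Polar granule component, a small protein that keeps transcription off in newly formed pole cells. Its RNA had 1.18, 17.9 and 46.7 CPM (lowest, median, highest) in AcfC at Stage 8, against 311, 383, 264, 240 and 243 CPM in the 5 embryos of Stage 3. In wild type it had 2.10, 19.7 and 26.7 CPM at Stage 8 and 207, 234 and 259 CPM at Stage 3. As for *nos*, the stages stood apart and single Stage 8 embryos differed widely. Stage 8 over Stage 3 gave log2 fold changes of −3.77 in AcfC and −3.57 in wild type (standard errors 0.430 and 0.268, edgeR adjusted p = 1.69e-06 and 3.64e-09). *T3dh*, the gene on the opposite strand, rose instead, by 3.07 and 3.49 on the log2 scale (edgeR adjusted p = 7.87e-07 and 7.9e-09).

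*gcl* encodes Germ cell-less, a ubiquitin ligase adaptor needed for pole cells to form. Its RNA fell too, but all embryos of a group stayed close together. It had 43.8, 48.6 and 57.1 CPM (lowest, median, highest) in AcfC at Stage 8, against 445, 440, 463, 452 and 428 CPM in the 5 embryos of Stage 3. In wild type it had 32.7, 45.9 and 50.02 CPM at Stage 8 and 394, 405 and 440 CPM at Stage 3. For *gcl* the stage difference was −3.12 in AcfC and −3.19 in wild type on the log2 scale (edgeR adjusted p = 4.1e-13 and 2.08e-14).

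*tud* encodes Tudor, the large scaffold of the germ granules, and its RNA level fell less. At Stage 8 it stood at 53.0% of its Stage 3 mean in AcfC and at 59.1% in wild type. Its log2 fold change was −0.86 in AcfC and −0.70 in wild type (standard errors 0.115 and 0.122, edgeR adjusted p = 8.58e-06 and 6.55e-05). In AcfC all 6 Stage 8 embryos (255 to 337 CPM) lay below the 5 of Stage 3 (445 to 704 CPM). In wild type the stages overlapped, with 364 to 479 CPM at Stage 8 and 438 to 849 CPM at Stage 3, where replicate 3 was the lowest.

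*vls* encodes Valois, a WD repeat protein that binds Tudor and assists the arginine methyltransferase of the germ plasm. It was the only one of the 8 whose RNA was clearly higher after ZGA under every scaling tried. It had 95.5, 108 and 117 CPM (lowest, median, highest) in AcfC at Stage 8, against 27.8, 34.5 and 36.04 CPM at Stage 3. In wild type it had 70.1, 109 and 139 CPM at Stage 8, against 24.3 to 38.7 CPM at Stage 3. The rise was 3.38-fold in AcfC and 3.19-fold in wild type (log2 fold changes 1.76 and 1.67, standard errors 0.0935 and 0.175, edgeR adjusted p = 4.76e-10 and 2.14e-07). *lok*, with which it shares exon bases, fell, with log2 fold changes of −1.90 and −1.94.

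*stau* encodes Staufen, a double-stranded RNA-binding protein that brings *osk* RNA to the posterior pole and is also used outside the germ line. Its RNA averaged 563 ± 45.8 CPM in AcfC at Stage 8 (SD, n = 6), against 443 ± 7.68 CPM at Stage 3 (SD, n = 5). In wild type it averaged 562 ± 35.0 CPM at Stage 8 and 408 ± 24.6 CPM at Stage 3 (SD, n = 6 each). The log2 fold change was 0.40 in AcfC and 0.52 in wild type (edgeR adjusted p = 5.38e-05 and 6.54e-07), but with scaling to the total deposited counts it was −0.093 and −0.004 and not called. That scaling also moved the median gene, to −0.08 in AcfC and −0.33 in wild type. In AcfC the change of *stau* on the TMM scale was that of the median gene.

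**Figure D2:**
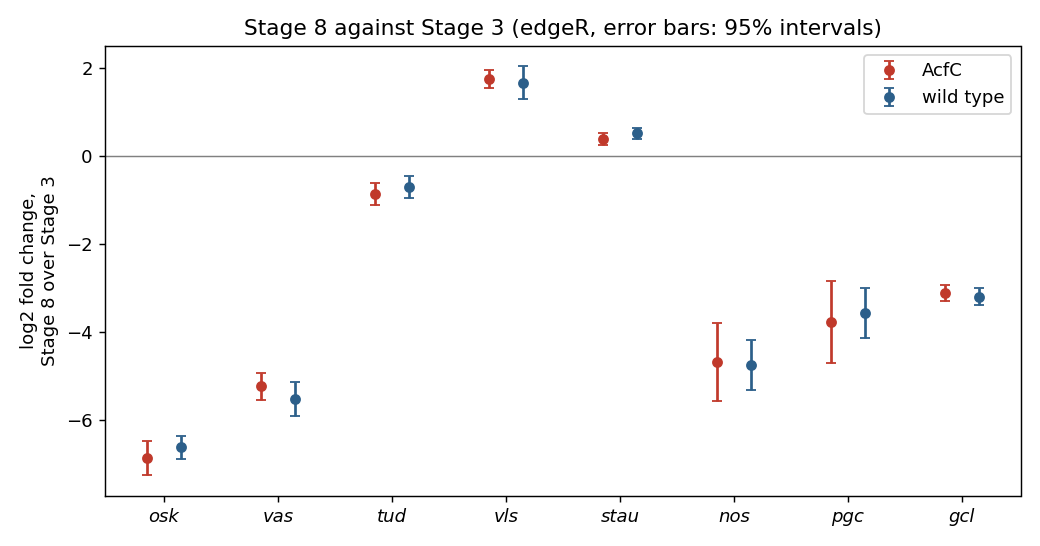
Log2 fold change of Stage 8 over Stage 3 for each gene, in AcfC (red) and wild type (blue), with 95% intervals from the edgeR fit of each genotype. The genes spread from −6.87 for *osk* to 1.76 for *vls* in AcfC and the intervals of the genotypes overlap for every gene.

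The order of the levels differed between the stages. Per kilobase of exon, AcfC embryos of Stage 8 averaged 105 CPM for *stau*, 81.1 for *vls*, 33.7 for *tud*, 19.8 for *gcl*, 17.2 for *pgc*, 13.6 for *nos*, 4.46 for *osk* and 3.43 for *vas*. From *gcl* downward every pair of neighbours overlapped. AcfC embryos of Stage 3 averaged 542 CPM per kilobase for *osk*, 361 for *nos*, 238 for *pgc*, 178 for *gcl*, 139 for *vas*, 82.5 for *stau*, 63.6 for *tud* and 24.8 for *vls*. In that order only the ranges of *gcl* and *vas* overlapped between neighbours. Wild type had the same order at Stage 8, and at Stage 3 only *tud* and *stau* (76.7 and 75.9) changed places, within overlapping ranges. Divided by the exon length shared with no other gene of the count table, *pgc* stood above *gcl* at Stage 8 in AcfC (32.4 and 20.1 CPM per kilobase) and in wild type (28.6 and 17.4). At Stage 3, *pgc* then stood above *nos* in AcfC (448 and 429), and *vas* above *gcl* in AcfC (185 and 180) and in wild type (210 and 166).

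Single embryos of one genotype and stage differed most in *nos* and *pgc* at Stage 8. The SD of log2 CPM around the group means was 1.35 for *nos* and 1.48 for *pgc* at Stage 8, against 0.124 and 0.211 at Stage 3. The other 6 genes had SDs of 0.103 to 0.417 at Stage 8 and 0.0536 to 0.316 at Stage 3.

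The lowest values belonged to 1 embryo of each genotype. AcfC replicate 5 had 9 reads of *nos* (exact Poisson 95% interval 4.12 to 17.1, counting error only) and wild-type replicate 2 had 16 (9.15 to 26.0), where the other 10 embryos had 82 to 314. In CPM these were 2.64 and 4.80, which is 12.1-fold and 6.64-fold below the median of the 12 embryos. The other 5 AcfC embryos had 19.9 to 56.3 CPM and the other 5 wild-type embryos 30.2 to 40.4 CPM.

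The same embryos were the lowest for *pgc*. AcfC replicate 5 had 4 reads (1.09 to 10.2) and wild-type replicate 2 had 7 (2.81 to 14.4), against 37 to 155 in the other 10. Their 1.18 and 2.10 CPM were 16-fold and 8.95-fold below the median of the 12. The remaining AcfC embryos had 13.6 to 46.7 CPM and the remaining wild-type embryos 18.1 to 26.7 CPM. *osk* was lowest in these embryos too, at 6.46 CPM in AcfC replicate 5 and 9.01 CPM in wild-type replicate 2, against 9.91 to 17.6 CPM in the other AcfC and 14.1 to 16.7 CPM in the other wild-type embryos.

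The other 5 RNAs differed between these embryos. In AcfC replicate 5, *gcl* had 46.4 CPM, within the 43.8 to 57.1 CPM of its group, and *vas*, *tud*, *stau* and *vls* also lay within the range of the other AcfC embryos. In wild-type replicate 2, *gcl* was the lowest of the 12 (32.7 CPM, 1.42-fold below their median) and *vls* the second lowest (70.6 CPM, 1.52-fold below), while *vas* was the highest of its group (8.71 CPM). The total counts of these embryos were 7670560 and 7448149, and the smallest library, AcfC replicate 4 with 4213692, had 54.3 CPM of *nos* and the highest *pgc*, 46.7 CPM.

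Pole cell genes outside the 8 were read in the same embryos. *zpg*, a germ line gap junction gene, had 2.06 CPM (7 reads) in AcfC replicate 5 and 2.10 CPM (7 reads) in wild-type replicate 2, the lowest of the 12, against 2.57 to 11.1 and 3.19 to 6.70 CPM in the others. *ovo* and *out*, also active in germ cells, were not low in AcfC replicate 5 (195 and 13.2 CPM, ranks 12 and 10 from the lowest of 12). In wild-type replicate 2 they had 117 and 6.61 CPM (ranks 5 and 3). Early zygotic RNAs summed to 2050 CPM in AcfC replicate 5, the highest of the 12, and to 1460 CPM in wild-type replicate 2, within the range of the others. Eggshell RNAs summed to 4.70 CPM in AcfC replicate 5 and 19.8 CPM in wild-type replicate 2, the highest at Stage 8. The part of stage, library size, eggshell RNA or handling in the low *nos* and *pgc* was not tested.

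**Figure D3:**
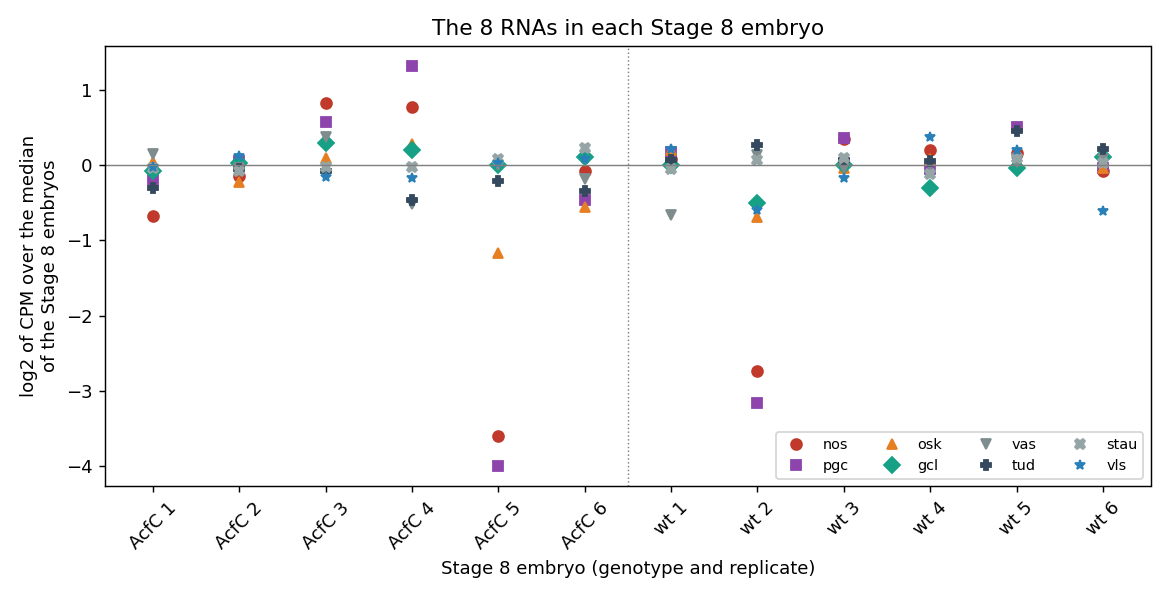
The 8 RNAs in each of the 12 Stage 8 embryos, AcfC left and wild type right, as log2 of CPM over the median of the 12. *nos* (circles) and *pgc* (squares) lie 6.64-fold to 16-fold below the median in AcfC replicate 5 and wild-type replicate 2, where *osk* is the next lowest in each.

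Around the group means, *nos* and *pgc* moved together over the 12 Stage 8 embryos (Pearson r = 0.979, Spearman rho = 0.853). Without the 2 embryos farthest out in *nos*, r was 0.784. *osk* followed *pgc* (r = 0.939, rho = 0.748, and 0.749 without the 2 farthest) and *nos* (r = 0.893, rho = 0.713), but the relation to *nos* was 0.445 without the 2 farthest. *gcl* followed *nos* (r = 0.649, rho = 0.497, and 0.518 without the 2 farthest) and *pgc* (r = 0.635, rho = 0.657, and 0.423 without the 2 farthest) less closely. The embryos share a normalization and these values describe 12 embryos without a test. At Stage 3, over 11 embryos, *nos* and *pgc* did not vary together (r = 0.001, rho = −0.009).

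Over all 23 embryos the genes most like *nos* in log2 CPM were *Rpt1* (a proteasome ATPase gene, r = 0.988), *pgc* (0.988) and *stai* (stathmin, 0.984), among 8697 genes. The genes most like *pgc* were *nos* (0.988), *Rpt1* (0.974) and *cad* (caudal, a posterior patterning gene, 0.974). These values span both stages, and 1475 genes reached 0.9 with *nos* and 505 with *pgc*. Within the 12 Stage 8 embryos alone, a ranking added after the data were seen, *pgc* was the closest to *nos* (0.978), followed by *Rpt1* (0.934) and *stai* (0.927). *Rpt1* had 82.6 CPM in AcfC replicate 5 and 101 CPM in wild-type replicate 2, the lowest of the 12, where the others had 116 to 145 CPM. *cad* had 1.18 CPM (4 reads) in AcfC replicate 5 and 14.7 CPM in wild-type replicate 2, again the lowest, against 19.9 to 44.2 CPM in the others. *Rpt1* and *cad* were chosen for likeness to *nos* or *pgc* over embryos that include both low embryos. Their low values there are therefore no independent result.

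AcfC and wild type differed little in these RNAs at Stage 8. Of the 8 genes only *tud* was called, 1 of 8 against 4.28% of all genes tested (2.05% lower and 2.22% higher in AcfC). *tud* had 283, 337, 331, 255, 302 and 277 CPM in AcfC replicates 1 to 6, against 366, 422, 366, 364, 479 and 406 CPM in wild type. All 6 AcfC embryos lay below all 6 wild-type embryos. The difference was −0.44 on the log2 scale (95% interval −0.62 to −0.25, standard error 0.0873, edgeR adjusted p = 0.0198), a level 1.35-fold lower in AcfC. Leaving out single embryos gave −0.47 to −0.37 (edgeR adjusted p 0.0204 to 0.0464). A fit with the summed early zygotic CPM as a covariate was not run at Stage 8. The libraries carry indexes that recur between replicates 1 to 3 and replicates 4 to 6, which were taken as possible library batches. Within these sets the difference was −0.28 and −0.58. That all AcfC embryos were lower in each set follows from the separation of all 6.

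No difference was detected for the other 7 genes at Stage 8. The 95% interval of the log2 fold change was widest for *pgc* (0.15, −1.03 to 1.32) and *nos* (0.06, −1.02 to 1.14), so that changes of these sizes in either direction are not excluded. Without the 2 low embryos, an alternative added after seeing the data, the values were 0.17 for *pgc* and 0.09 for *nos* (edgeR adjusted p = 0.862 and 0.927). The interval was −0.63 to 0.33 for *osk*, −0.34 to 0.46 for *vas*, −0.33 to 0.37 for *vls* and −0.05 to 0.44 for *gcl*. For *stau* it was the narrowest, −0.14 to 0.14.

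Before ZGA, *pgc* and *gcl* were higher in AcfC, and *stau* lay just outside the threshold. These are 2 of 8 genes called, against 12.0% of all genes tested (6.35% higher and 5.66% lower in AcfC). *pgc* had 311, 383, 264, 240 and 243 CPM in AcfC replicates 1, 3, 4, 5 and 6, against 259, 236, 239, 232, 208 and 207 CPM in wild-type replicates 1 to 6. All 5 AcfC embryos lay above 5 of the 6 wild-type embryos, and only wild-type replicate 1 lay among them. For *pgc* the difference was 0.33 on the log2 scale (95% interval 0.09 to 0.56, standard error 0.109, edgeR adjusted p = 0.0907). Within the first and second index set the difference was 0.50 and 0.21, with all AcfC embryos higher in each. *T3dh* had a log2 fold change of 0.59 (adjusted p = 0.304 from edgeR), and the effect of the shared bases on the value of *pgc* was not tested.

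*gcl* had 445, 440, 463, 452 and 428 CPM in the AcfC embryos, against 399, 425, 440, 401, 409 and 394 CPM in the wild-type embryos. The AcfC embryos lay above all wild-type embryos except replicate 3, which had 440 CPM. Its log2 fold change was 0.12 (standard error 0.0406, 95% interval 0.04 to 0.21, edgeR adjusted p = 0.0908), 0.07 and 0.16 within the index sets. *stau* had 454, 438, 448, 439 and 437 CPM in AcfC, against 409, 404, 455, 400, 394 and 384 CPM in wild type, where replicate 3 was again the highest. Its log2 fold change was 0.13 (95% interval 0.03 to 0.23, edgeR adjusted p = 0.113). DESeq2 called it together with *pgc* and *gcl* (adjusted p = 0.0443, 0.0405 and 0.0243).

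The calls before ZGA rested on single embryos. When single embryos were left out, edgeR called 0 to 5 of the 8 genes. The calls were 5 without wild-type replicate 3, 2 without AcfC replicate 6, 1 without AcfC replicate 3 or 5 or wild-type replicate 1, and 0 without any of the others. *pgc* then had log2 fold changes of 0.21 to 0.38 (adjusted p 0.059 to 0.203) and *gcl* of 0.094 to 0.145 (adjusted p 0.0214 to 0.201), all higher in AcfC. Eggshell RNAs of follicle cells (9 genes) summed to 1.98 to 29.0 CPM in the AcfC embryos, highest in replicates 1 and 5 (13.5 and 29.0), against 0 to 3.23 CPM in wild type, where replicate 2 had all 9 at 0. Of the 4 eggshell genes tested, 2 were called higher in AcfC. Without those 2 AcfC embryos, an alternative added after seeing the data, none of the 8 germ plasm genes was called (*pgc* 0.37, adjusted p = 0.157, and *gcl* 0.11, adjusted p = 0.245). With the summed early zygotic CPM as a covariate, none of the 8 was called (*pgc* 0.33, adjusted p = 0.141, and *gcl* 0.08, adjusted p = 0.277).

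Wild-type replicate 3 stood apart within its group. It had the lowest *osk* (1199 CPM), *nos* (698 CPM), *vas* (222 CPM), *tud* (438 CPM) and *vls* (24.3 CPM) and the highest *gcl* (440 CPM) and *stau* (455 CPM) of the 6, beside its high early zygotic sum of 344 CPM. Without it, *vas* (−0.28) and *tud* (−0.36) were called lower in AcfC (edgeR adjusted p = 0.0857 and 0.0522) and *stau* was called higher (0.16, adjusted p = 0.00957). With it, *vas* had a log2 fold change of −0.18 (95% interval −0.51 to 0.15) and *tud* one of −0.27 (−0.59 to 0.06), and neither was called. *osk* (0.09, −0.08 to 0.27), *nos* (−0.003, −0.14 to 0.14) and *vls* (−0.05, −0.29 to 0.18) were not called with or without it.

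**Figure D4:**
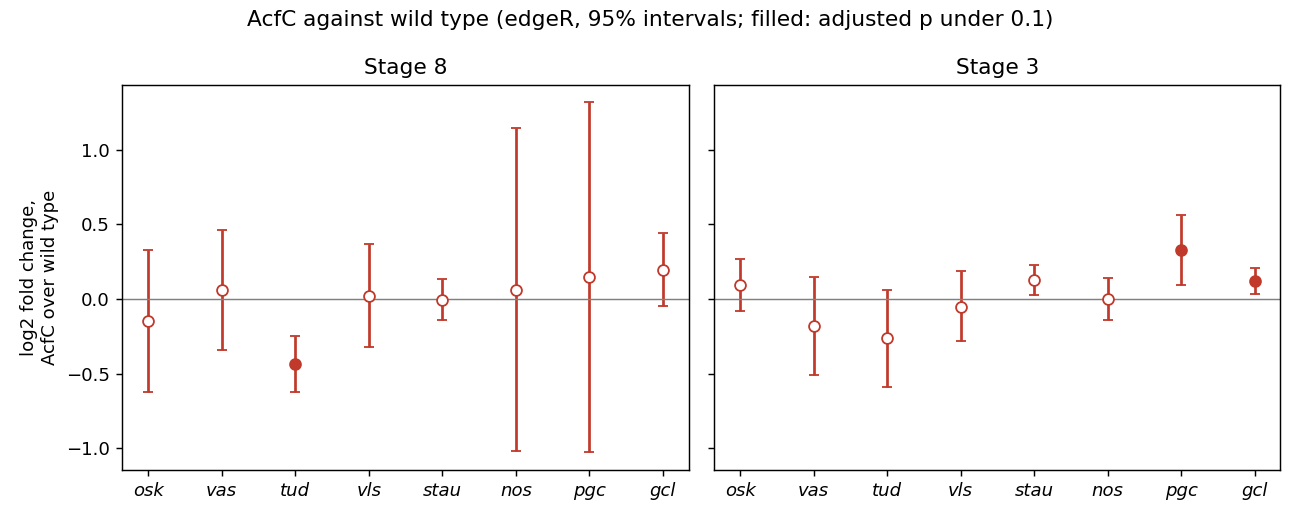
Log2 fold change of AcfC over wild type at Stage 8 (left) and Stage 3 (right), with 95% intervals from edgeR. Filled points are called (adjusted p under 0.1): *tud* at Stage 8 (−0.44), and *pgc* (0.33) and *gcl* (0.12) at Stage 3, while *nos* and *pgc* have wide intervals at Stage 8.

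Some of the 8 RNAs also varied together among single Stage 3 embryos. *vas* and *tud* rose and fell together over the 11 embryos around their group means (r = 0.928, rho = 0.936, and 0.805 without the 2 farthest). *vls* followed *tud* (r = 0.872, rho = 0.564, and 0.657 without the 2 farthest) and *stau* ran opposite to *vas* (r = −0.872, rho = −0.709, and −0.558 without the 2 farthest). *vas* was lowest in wild-type replicate 3 (222 CPM) and in AcfC replicates 1, 4 and 5 (263, 287 and 290 CPM). *tud* was lowest in wild-type replicate 3 (438 CPM) and in AcfC replicates 1 and 4 (445 and 448 CPM). Those 3 embryos also had the highest early zygotic sums of the 11, 344, 364 and 360 CPM. As there are only 11 embryos and the embryos share a normalization, these values carry no test.

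**Figure D5:**
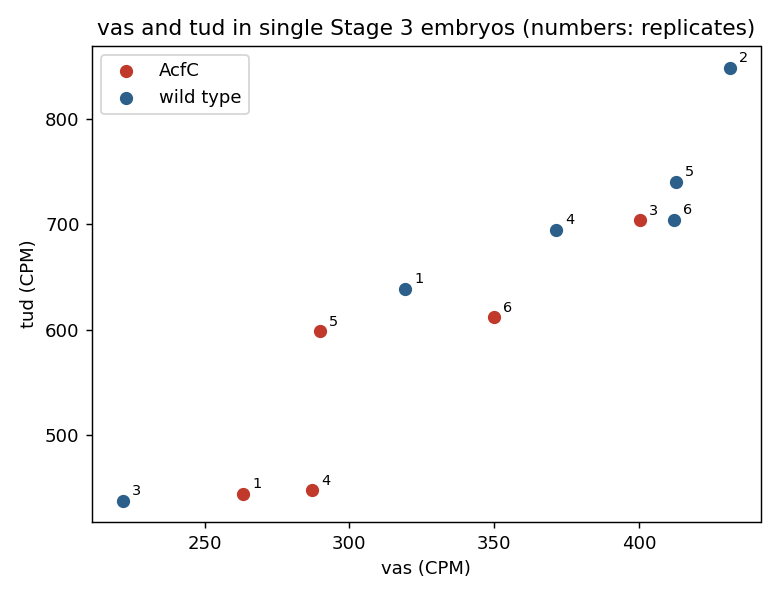
*tud* against *vas* in CPM in the 11 Stage 3 embryos, AcfC red and wild type blue, with replicate numbers. Wild-type replicate 3 and AcfC replicates 1 and 4 lie at the lower left, with *tud* at 438 to 448 CPM.

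The genotype effect did not detectably differ between the stages for any of the 8 genes. The interaction of genotype and stage called 0 of 8 genes in edgeR, with 0 at an unadjusted p under 0.05 and 0 by DESeq2, against 2.72% of all genes tested (1.24% positive and 1.48% negative). The interaction of *tud* was −0.16 (95% interval −0.54 to 0.23), that of *pgc* −0.21 (−1.28 to 0.85) and that of *gcl* 0.08 (−0.15 to 0.32). The differences of *tud* at Stage 8 and of *pgc* and *gcl* at Stage 3 are therefore not shown to belong to one stage.

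Genes that act with the 8 were read from 4 lists. Their calls were compared only between edgeR and DESeq2. The covariate and leave-out fits of the 8 genes were not read for these lists. In the machinery that moves *osk* RNA and controls its translation, 16 of 18 genes were tested, of which 7 were higher and 9 lower at Stage 8 in each genotype, where 86.2% of all genes were called in AcfC and 88.1% in wild type. The largest falls were those of *bru1* (−6.47 in AcfC, −6.48 in wild type), the repressor of *osk* translation, and *orb* (−5.99 in both), its activator. At Stage 3, 3 of the 16 were higher in AcfC and none lower, namely *Hrb27C* (0.22), *sqd* (0.18) and *Tm1* (0.14), with edgeR adjusted p of 0.0211, 0.0623 and 0.0827, against 6.35% of all genes higher and 5.66% lower. DESeq2 also called 3 of the 16. The first and second encode proteins that bind *osk* RNA, and *Tm1* is needed for its transport.

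Among 8 tested partners and regulators of *nos*, 1 was higher and 6 were lower at Stage 8 in each genotype, 7 of 8 called against 86.2% of all genes in AcfC and 88.1% in wild type. *smg*, whose protein represses and destabilizes *nos* RNA outside the germ plasm, had log2 fold changes of −4.07 in AcfC and −3.87 in wild type. *pum*, the partner of Nanos on its targets, had −2.21 and −2.47. At Stage 3, edgeR called 1 of the 8 between the genotypes, against 12.0% of all genes, namely *tral* with 0.14 (adjusted p = 0.069), higher in AcfC. DESeq2 called 4 of the 8, and 4 had an unadjusted p under 0.05 in edgeR.

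Of 10 genes for Tudor domain and Piwi proteins and their partners, 1 was higher and 9 lower at Stage 8 in AcfC, and 1 higher and 6 lower in wild type, against 86.2% and 88.1% of all genes called. *krimp* (−3.53 in AcfC, −3.66 in wild type), *qin* (−3.07 and −3.70) and *piwi* (−2.50 and −2.60) fell the most. At Stage 3, 2 of the 10 were lower in AcfC, *papi* (−0.28, edgeR adjusted p = 0.0272) and *csul* (−0.16, adjusted p = 0.091), against 5.66% of all genes lower, and DESeq2 called 2. *csul* encodes the methyltransferase that acts on germ granule proteins with Valois.

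Of 10 genes expressed in pole cells or needed for their migration and survival, 1 was higher and 7 lower at Stage 8 in AcfC, and 1 higher and 8 lower in wild type, against 86.2% and 88.1% of all genes called. *zpg* fell (−5.75 in AcfC, −5.95 in wild type), and so did *out* (−3.95 and −4.00). At Stage 3, *wun*, a lipid phosphatase that guides and limits pole cells, was lower in AcfC (−0.99, standard error 0.0994, edgeR adjusted p = 8.24e-05) and *ovo* was higher (0.19, adjusted p = 0.082), 2 of 10 called by edgeR and 3 by DESeq2, against 12.0% of all genes in edgeR. The interaction of genotype and stage called *wun* (0.82) and *Hsp83* (0.81), with edgeR adjusted p of 0.0675 and 0.0734, 2 of 10 against 2.72% of all genes (1.24% positive), so the genotype difference of *wun* was smaller at Stage 8, where it was −0.19 and not called. At Stage 8, 0 genes of the 4 lists were called between the genotypes by edgeR. Of 16, 8, 10 and 10 genes tested, in the order of the lists above, 1, 2, 2 and 3 had an unadjusted p under 0.05, and DESeq2 called 0, 0, 0 and 1.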

How the data were processed

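The authors mapped reads with STAR (version 2.5.0a per the submitters' processing notes) and deposited raw counts per gene for 17370 genes in 24 embryos, with no normalization and no column without a sample (0). Positions and gene types came from the Ensembl annotation of BDGP6, with 17155 of the genes listed, including 13728 that code for protein. The 8 genes and the lists of related genes were chosen with earlier results of these data known.

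A gene needed counts in more than 50% of the embryos of a comparison. Counts were tested in R 4.3.3 by the quasi-likelihood method of edgeR 4.0.16 (two-sided, TMM normalization, prior count 0.125, Benjamini-Hochberg adjustment over all genes tested, cutoff 0.1), separately by stage or genotype as in the study and in one fit of 4 groups for the interaction. The edgeR step was tested on simulated data. CPM levels use TMM factors over all 24 embryos. Likeness used log2 of CPM + 0.5. Named are all 8 genes and, per list and comparison, up to 3 called genes with the largest change and a mean of at least 10 CPM, and for *nos* and *pgc* the 3 most alike genes. Genes singled out beyond this rule were chosen after their values were seen. Each embryo is a separate animal. Correlations of same-numbered embryos around their group means lay between −0.29 and 0.184, so numbers were not taken as pairs. Alternatives were DESeq2 1.42.0, other scalings, filters and gene sets, a cutoff of 0.05, covariates, the replicate block and leaving out each embryo. Motifs in the RNAs were not analysed here. *Imp* was not matched.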

Additional observations from a re-analysis of the deposited data

Results flagged for a closer look

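Among 32 groups of embryos (8 genes in 4 groups), 6 had 1 embryo whose gap to the nearest other was large against the range of its group. Chance gives this in about 1 in 20 groups, and the groups share embryos. Wild-type replicate 2 at Stage 8 was far below the other 5 in *osk* (9.01 CPM), *nos* (4.80 CPM) and *pgc* (2.10 CPM). AcfC replicate 5, as low in *nos* and *pgc*, did not meet the rule because its group was more widely spread. Wild-type replicate 1 at Stage 8 was far below its group in *vas* (5.02 CPM, 24 reads). Wild-type replicate 3 at Stage 3 was far above its group in *stau* (455 CPM) and far below it in *vls* (24.3 CPM).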

How the results depend on the processing

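The stage comparisons of the 8 genes kept their directions and calls under every alternative, except *stau* with scaling to the total deposited counts (−0.093 in AcfC and −0.004 in wild type). *tud* at Stage 8 was called between genotypes under all 13 settings other than leave-one-out (adjusted p 0.000906 from DESeq2 to 0.0791 from edgeR). It was also called in all 12 fits without 1 embryo. These settings did not include the staging covariate, which was fitted only at Stage 3 and moved *tud* there from −0.265 to 0.006. For AcfC against wild type at Stage 3, the count of 2 called genes was 0 with total deposited counts, without a filter, at a cutoff of 0.05, in one fit of 4 groups, with the staging covariate and, added after seeing the data, without the 2 AcfC embryos highest in eggshell RNAs. It was 2 with upper quartile scaling, and 3, *stau* included, with DESeq2, RLE factors, filterByExpr, all genes, the index set covariate and all 6 AcfC embryos. It was 0 to 5 with 1 embryo left out. The replicate block gave 1, left *tud* called at Stage 8, turned *nos* at Stage 8 (−0.022) and Stage 3 (0.008), and changed no other direction among the 8 genes. Replicate numbers were not taken as pairs in the main fits.

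Some values changed sign without a call, and not all of them were near 0 in the main fit. *nos* at Stage 3 was 0.001 with DESeq2 and RLE size factors, 0.006 with upper quartile scaling, 0.002 with filterByExpr, 0.003 with all genes and in one fit, 0.022 with all 6 AcfC embryos, 0.076 with the staging covariate and 0.025 without the 2 embryos rich in eggshell RNAs. The staging covariate also turned *vas* (from −0.18 to 0.101), *tud* (from −0.265 to 0.006) and *vls* (from −0.051 to 0.121) at Stage 3. *stau* at Stage 8 was 0.002 with DESeq2 and RLE, 0.012 with total counts and 0.007 with filterByExpr. The labels give no sex of the embryos, for which the level of *roX1* was a covariate at Stage 8. This covariate turned *osk* (0.014) and *vls* (−0.012). It moved *nos* from 0.063 to 0.452 and *pgc* from 0.145 to 0.586, neither called (edgeR adjusted p = 0.703 and 0.673). Without the 2 embryos low in *nos* and *pgc*, *vls* was −0.079 at Stage 8 and −0.008 in the interaction. With each embryo left out, *nos* ranged from −0.052 to 0.029 and *vls* from −0.122 to 0.003 at Stage 3. At Stage 8, *nos* ranged from −0.206 to 0.298, *vas* from −0.050 to 0.121, *pgc* from −0.228 to 0.386, *stau* from −0.042 to 0.020 and *vls* from −0.076 to 0.126. In the interaction, *nos* ranged from −0.248 to 0.302, *pgc* from −0.507 to 0.034 and *vls* from −0.002 to 0.190.

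The summed CPM of the 8 genes depended on the scaling. At Stage 8 it was 1090 in AcfC and 1180 in wild type, and at Stage 3 it was 4493 and 4440. With RLE factors it was 1176 and 1257 at Stage 8, and 4243 and 4076 at Stage 3. With upper quartile factors it was 1216 and 1323 at Stage 8, and 4046 and 3942 at Stage 3. With total deposited counts it was 513.7 and 551.3 at Stage 8, and 2860 and 2879 at Stage 3. Low counts limit *vas*, *osk*, *nos* and *pgc* at Stage 8.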
